A study of Mus musculus with 18 samples.

Results

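The genes described here are 41 mouse genes that take fatty acids into the cell, build them, desaturate them, store them as triglyceride and release them again. They were chosen by symbol from general knowledge of the pathway, but with earlier results of these data known. Counts of members called are therefore descriptions and not an independent test. All 41 were found by Entrez identifier among the 24100 genes listed in each of the count tables. They were sorted into 7 steps, with 7 genes of uptake and carriage, 3 of activation, 7 of synthesis and elongation, 4 of desaturation, 9 of the glycerol backbone and triglyceride assembly, 7 of droplet storage and 4 of lipolysis and oxidation. The cells are C3H/10T1/2, a mouse mesenchymal progenitor cell (MPC) line that can be driven to adipocytes, kept here in normal culture medium without differentiation cues.

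*Atrx* WT is an isogenic line that carried the empty Cas9 vector without an sgRNA, and the KO lines are a single clone made with sg5 and a single clone made with sg6, both targeting *Atrx*, a chromatin remodeler gene. Each of the 3 lines has 3 libraries of polyA-selected RNA and 3 of rRNA-depleted RNA, 18 libraries in all. Because every group is a single line and no source says that its libraries came from separate cultures, the tests measure the spread between libraries of a line, and a clone's difference from WT cannot be told apart from whatever else differs between these lines. Both clones were compared with the same WT libraries.

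A fat cell obtains fatty acids in several ways. Lipoprotein lipase frees them from circulating triglyceride, membrane transporters and small binding proteins bring them in, and the cell can also make them from citrate through ATP citrate lyase, acetyl-CoA carboxylase and fatty acid synthase. Acyl-CoA synthetases activate them, acyltransferases and lipins join them to a glycerol backbone, perilipins coat the resulting droplet, and a chain of lipases ending in monoacylglycerol lipase takes the triglyceride apart. Synthesis and desaturation genes are known targets of the SREBP factors, and many uptake and storage genes are known targets of PPARγ, the main transcription factor of fat cells.

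Depth differed between the groups. The polyA totals were lowest in WT (27544833 to 80772108 counts) and sg6 (58918732 to 71896907) and far higher in sg5 (161036799 to 235346363), while the rRNA-depleted totals ranged from 20135336 to 33187136. Levels are given as CPM, read counts scaled by TMM to a common library size. *Atrx* mRNA itself was lower in both clones, by 1.24 (sg5) and 1.20 (sg6) on the log2 scale in polyA, and every KO library lay below every WT library. All 10 progenitor markers on the list were detected in every polyA group. Their summed level was 19370 to 20960 CPM in the WT libraries, 20440 to 21450 with sg5 and 25640 to 28210 with sg6. Past the threshold, *Thy1* fell in sg5 and rose in sg6, and *Ly6a* rose in sg6. Of 9 mature adipocyte markers only 4 were detected well enough for a test, *Retn* was at 0 in every polyA library, *Lep* reached at most 1 count, and the summed level of the list was 29.97 to 32.7 CPM in the WT libraries, 57.0 to 60.7 CPM with sg5 and 55.6 to 60.5 CPM with sg6, with *Cebpa* the only one of its tested genes past the threshold. Summed macrophage markers ranged from 24.3 to 30.8 CPM among WT libraries, from 14.3 to 17.6 with sg5 and from 16.3 to 18.3 with sg6. Of the 5 tested macrophage genes, *Csf1r*, *Fcgr1* and *Lyz2* fell past the threshold in sg5 and *Lyz2* in sg6. The median log2 fold change of the 5 was −1.37 in sg5 and −0.84 in sg6. Summed endothelial markers ranged over 4.09 to 5.67, 11.02 to 16.5 and 10.4 to 11.9 CPM, but the genes of that list went both ways. Of its 4 tested genes, *Tek* rose and *Pecam1* fell past the threshold in both clones, and *Vwf* fell in sg6. Their median log2 fold change was −0.22 in sg5 and −0.71 in sg6. The part of these lists in the results below was not tested.

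In polyA RNA, 38 members had enough counts for a test, and 4 of them rose in sg5, *Lpl*, *Fabp4*, *Mgll* and *Lpin3*, and 4 fell, *Slc27a1*, *Angptl4*, *Cd36* and *Acacb*, where a call needed both a change of more than 1 in log2 terms and, in edgeR's quasi-likelihood test, an adjusted p under 0.05. Among all 15480 genes tested, 3.18% rose and 6.96% fell by the same rule. In sg6, 3 members rose, the same genes without *Fabp4*, and the same 4 fell, beside 3.64% and 7.54% of all genes. Thus 3 members rose and 4 fell in both clones, where 2.18% and 5.48% of all genes did. The median log2 fold change of the members was 0.06 in sg5 and −0.04 in sg6, and that of all genes was −0.00 and −0.01. Without the first WT library, 5 members passed upward in both clones, because *Acsl1* and *Plin4* crossed the fold limit, and without the second WT library 2 passed upward in sg5. Shares of all genes were not counted in these leave-out fits.

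By the adjusted p alone, 7 members were higher and 8 lower in sg5, where 13.6% and 13.4% of all genes were, and 10 were higher and 7 lower in sg6, where 16.1% and 14.6% were. In both clones 6 were higher, adding *Acsl1*, *Plin4* and *Cpt1a*, and 6 were lower, adding *Acsl3* and *Acsl4*. The share of all genes passing in both clones by the adjusted p alone was not counted, so these 2 counts have no background beside them. The untested members were *Plin1*, *Cidea* and *Cidec*, each with at most 4 counts in any polyA library.

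**Figure D1:**
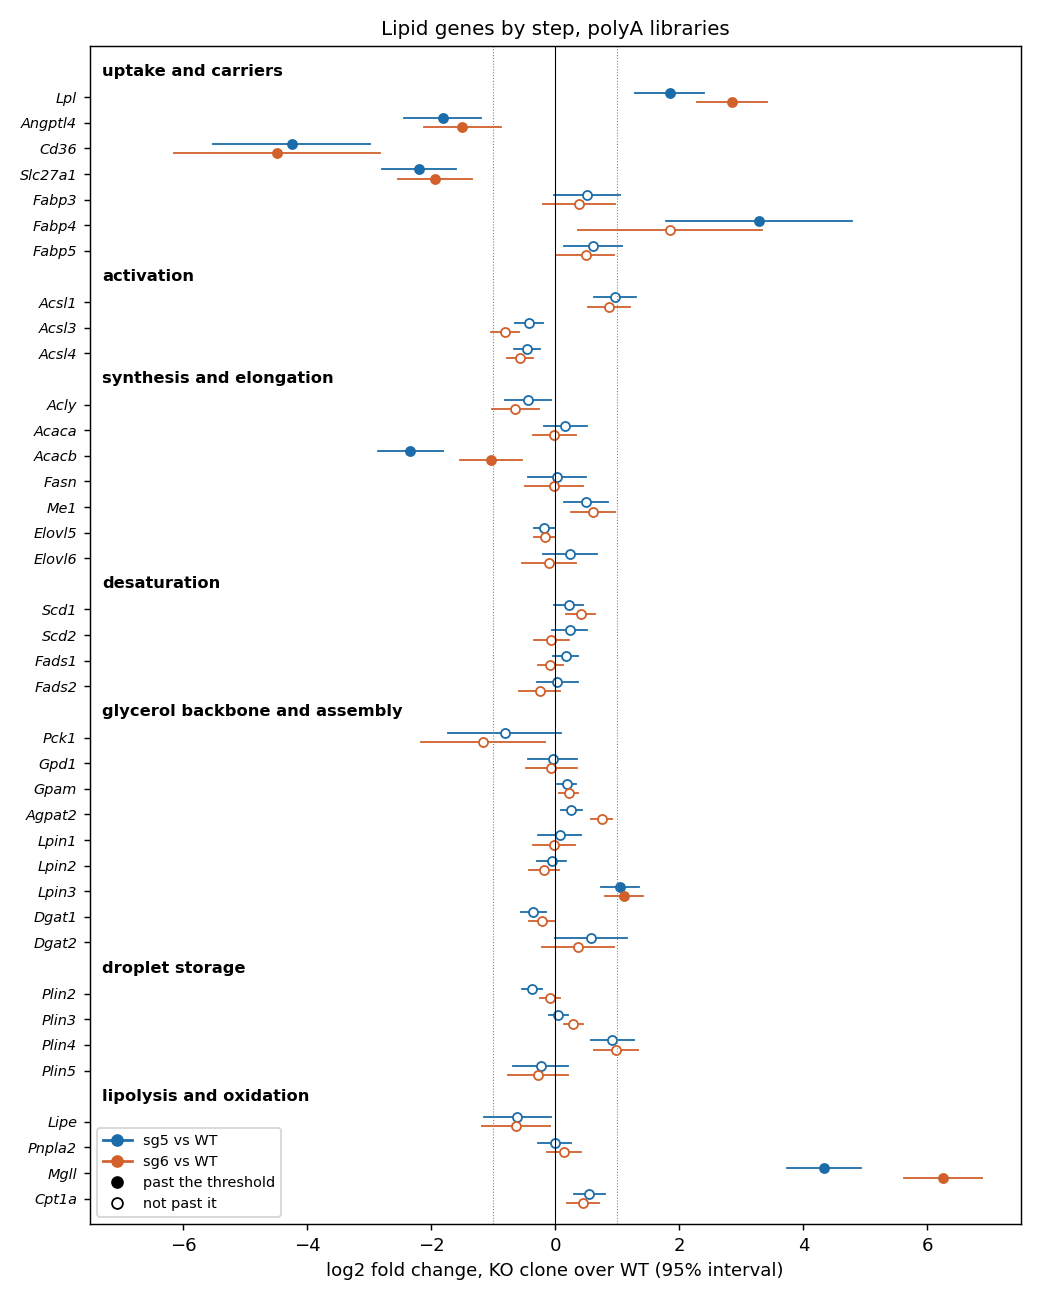
Log2 fold change of each KO clone over WT in the polyA libraries for the 38 tested members, grouped by step, with 95% intervals (normal approximation) as bars and the log2 fold change of 1 in either direction as dotted lines. Filled points passed the threshold: Mgll stands farthest to the right at 4.33 in sg5 and 6.25 in sg6, Cd36 farthest to the left at −4.25 and −4.49, and the desaturation genes lie close to 0.

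To place the members that changed in both clones, the bases just before the first annotated start of 3 of them are shown, those for which the RefSeq promoter table (GRCm38.p6) has a window lying outside the gene. They are given 5′ to 3′ on the gene's strand, with capitals for any match to 6 motifs on either strand.
*Mgll*, chr6:88724162-88724411, plus strand, rose: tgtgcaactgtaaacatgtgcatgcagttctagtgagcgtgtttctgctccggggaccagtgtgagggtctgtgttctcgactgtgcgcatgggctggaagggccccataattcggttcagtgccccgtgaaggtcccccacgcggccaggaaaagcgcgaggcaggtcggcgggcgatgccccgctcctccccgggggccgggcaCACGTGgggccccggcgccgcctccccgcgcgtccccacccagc
*Lpin3*, chr2:160880420-160880669, plus strand, rose: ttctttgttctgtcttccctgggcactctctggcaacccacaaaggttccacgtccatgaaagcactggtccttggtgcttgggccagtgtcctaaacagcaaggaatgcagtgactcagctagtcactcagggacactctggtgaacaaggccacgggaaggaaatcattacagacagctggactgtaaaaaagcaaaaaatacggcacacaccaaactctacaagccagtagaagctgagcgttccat
*Slc27a1*, chr8:71568621-71568727, plus strand, fell: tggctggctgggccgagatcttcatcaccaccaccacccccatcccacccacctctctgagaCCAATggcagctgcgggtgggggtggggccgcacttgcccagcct

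The motifs were the nuclear receptor half-site AGGTCA, the E-box CACGTG, the C/EBP palindrome TTGCNNAA, the sterol response core TCACNCCAC, the GC box GGGCGG and the CCAAT box CCAAT. Of 32851 windows of 250 bases before an annotated start, 14% held AGGTCA, 6.02% CACGTG, 9.56% TTGCNNAA, 1.05% TCACNCCAC, 32.7% GGGCGG and 33.8% CCAAT. The *Mgll* stretch held 1 CACGTG, the *Slc27a1* stretch, only 107 bases long, held 1 CCAAT, and the *Lpin3* stretch held none of the 6. All 3 genes have further annotated starts whose windows are not shown. The windows starting at 88724454 (*Mgll*), 160887918 (*Lpin3*) and 71569347 (*Slc27a1*) each held 1 GGGCGG. Another *Slc27a1* window, starting at 71570344, held 1 CACGTG, 3 GGGCGG and 1 CCAAT. GC content was 68% before *Mgll*, 67.3% before *Slc27a1* and 49.6% before *Lpin3*. With chromosome 18, where *Cidea* lies, left out of the member windows but not of the 32851, the table has entries for 30 members with 42 windows. Of these, 8 held AGGTCA, 5 CACGTG, 3 TTGCNNAA, 1 TCACNCCAC, 22 GGGCGG and 16 CCAAT. These matches describe letters and were not tested as binding sites.

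In polyA, uptake and carriage held 5 of the 8 members past both limits in sg5. *Lpl* encodes lipoprotein lipase, the enzyme that frees fatty acids from lipoproteins (chromosome 8, 68880555 to 68906932). Its level was 10.7, 8.73 and 9.50 CPM in the WT polyA libraries, 52.9, 27.3 and 23.3 in sg5 and 76.9, 60.7 and 70.6 in sg6. The 3 lines did not overlap, with WT lowest and sg6 highest. *Lpl* rose by a log2 fold change of 1.84 ± 0.28 (SE, adjusted p = 0.00150) in sg5 and 2.85 ± 0.29 (adjusted p = 1.39e-04) in sg6. The difference between the clones, −1.01 for sg5 minus sg6 (95% interval −1.54 to −0.48), did not pass in polyA (adjusted p = 0.0735), but did without the first sg5 library (−1.45, adjusted p = 9.36e-04), which held the highest sg5 value, and in the fit blocked on replicate number (−1.08, adjusted p = 0.0116).

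*Angptl4* encodes a secreted inhibitor of lipoprotein lipase (chromosome 17, 33774900 to 33781575), and its level was lower in the clones. Its polyA level was 5.17, 4.11 and 5.89 CPM in WT, 2.06, 0.855 and 1.40 in sg5 and 1.70, 1.46 and 2.20 in sg6. Every KO library lay below every WT library, and the clones overlapped each other. *Angptl4* fell, its log2 fold change being −1.81 ± 0.31 in sg5 (adjusted p = 0.00306) and −1.497 ± 0.32 in sg6 (adjusted p = 0.00689).

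Of the membrane transport genes, the 2 members fell. The related *Slc27a4*, outside the members, was slightly higher in sg6 (0.34, adjusted p = 0.0219) and gave 0.21 (adjusted p = 0.121) in sg5. *Slc27a1* encodes the fatty acid transport protein FATP1 (chromosome 8, 71568728 to 71587307). It was at 39.9, 37.5 and 51.4 CPM in WT, 6.73, 9.22 and 12.2 in sg5 and 6.69, 12.2 and 14.8 in sg6, again with every KO library below WT. The decrease was a log2 fold change of −2.195 ± 0.30 (adjusted p = 9.23e-04), in sg5 and −1.94 ± 0.30 (adjusted p = 0.00148) in sg6. *Cd36*, the fatty acid translocase (chromosome 5, 17781690 to 17888959), was scarcely detected. The WT polyA libraries held 6, 22 and 15 counts of *Cd36*, those of sg5 1, 1 and 5 and those of sg6 0, 2 and 0, although the sg5 libraries are the deepest. In CPM, *Cd36* was at 0.210, 0.252 and 0.334 in WT, 0.00631, 0.00436 and 0.0308 in sg5 and 0, 0.0321 and 0 in sg6, with every KO library below WT. Scaled for depth, WT was higher than sg5 by a ratio of 21.0 (95% counting interval 9.36 to 55.3) and higher than sg6 by 24.9 (6.48 to 212). The fitted *Cd36* changes, −4.25 and −4.49, passed (adjusted p = 0.00146 and 0.00383), but they rest on a few counts and depend on the prior count of the fit.

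The fatty acid binding proteins carry fatty acids through the cytosol. *Fabp4*, the adipocyte form (chromosome 3, 10204342 to 10208616), was at 1.22, 0.652 and 0.334 CPM in WT, 12.7, 4.48 and 3.33 in sg5 and 4.93, 1.56 and 1.06 in sg6. The sg5 libraries lay above WT, while those of sg6 overlapped with WT, and in each line the first library was the highest and the third the lowest. *Fabp4* rose by 3.28 ± 0.76 in sg5 (adjusted p = 0.0125); in sg6 the value was 1.85 (95% interval 0.37 to 3.33, adjusted p = 0.0948). In the fit blocked on replicate number the sg6 change passed (1.62, adjusted p = 4.49e-04), and in every same-numbered pair the sg6 library lay above the WT library. Without the second WT library, the sg5 change of 3.20 no longer passed (adjusted p = 0.0585). *Fabp5*, at 29.7 to 64.9 CPM in WT, had log2 fold changes of 0.61 and 0.49, and *Fabp3*, at 0.222 to 0.419 CPM, of 0.51 and 0.39, none of them past the adjusted p. Of the 31-base words of *Fabp3* transcripts, 37.3% occur in other genes, mostly in the pseudogene *Fabp3-ps1*, so its reads may not all be its own.

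**Figure D2:**
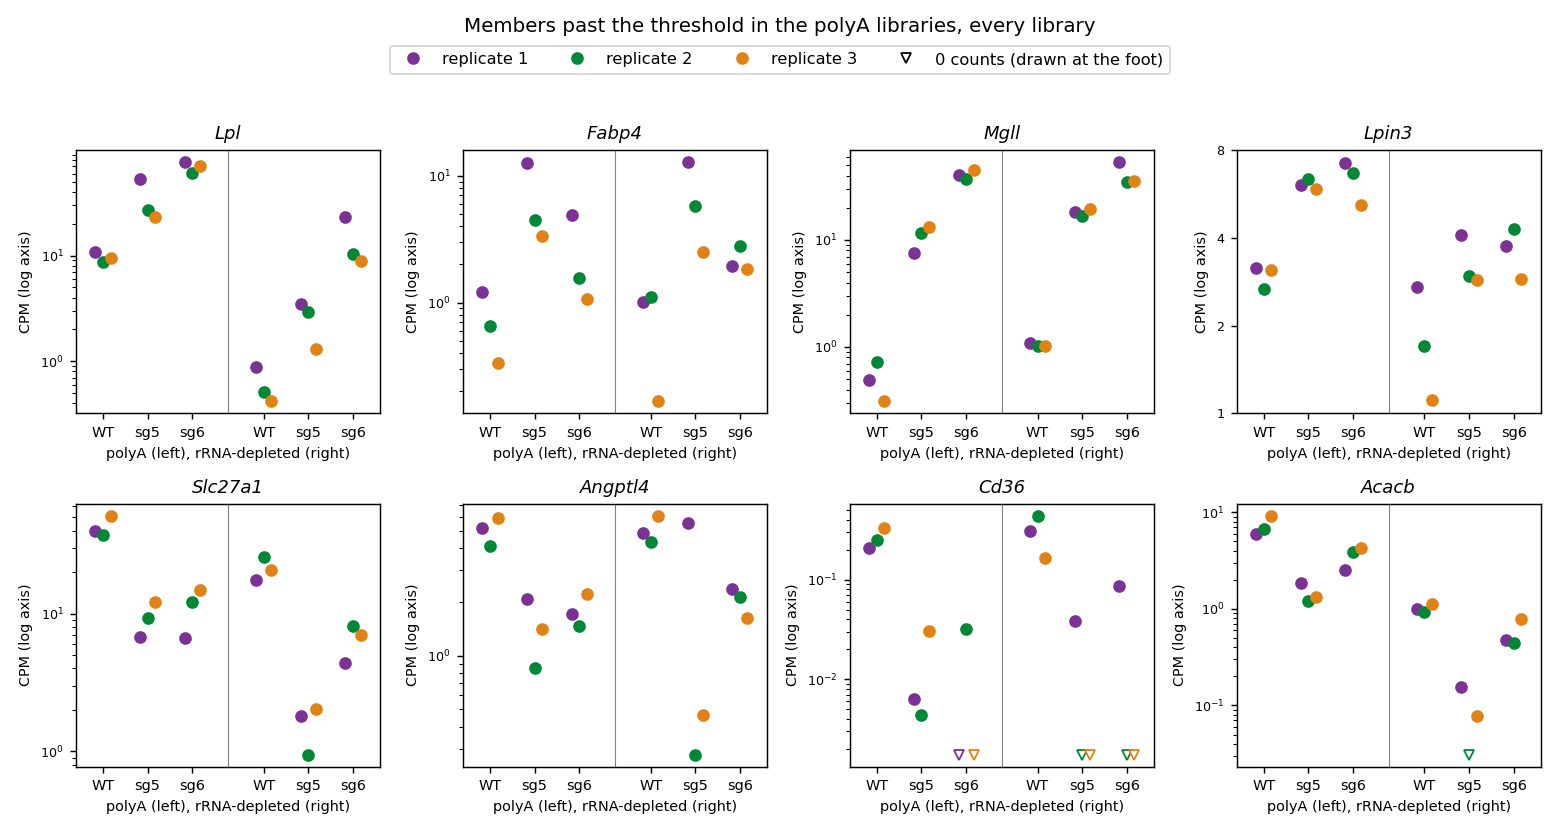
Level in CPM (log axes) of the 8 members past the threshold in at least 1 clone in polyA, with every polyA library on the left of each panel and every rRNA-depleted library on the right, coloured by replicate number; open triangles are libraries with 0 counts. In Lpl and Mgll the lines are stacked WT, sg5, sg6 from low to high in both kinds, and in Slc27a1 and Acacb both clones lie below WT.

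The acyl-CoA synthetases, which activate fatty acids for every later step, split. *Acsl1*, the main form of fat cells, was at 70.5, 54.3 and 40.1 CPM in the WT polyA libraries, 117, 104 and 99.3 in sg5 and 105, 97.0 and 97.1 in sg6, so that both clones lay above WT. Its log2 fold changes, 0.96 ± 0.17 (adjusted p = 0.00358) and 0.86 ± 0.17 (adjusted p = 0.00517), stayed short of 1, and reached 1.18 and 1.08 without the first WT library, the WT library in which it was highest. Exons of *Acsl1* overlap the antisense gene *Gm45244* over 1039 bases, and with the strand setting of the counting not given in the sources used here the reads of both cannot be told apart there. *Acsl3* changed by −0.42 (adjusted p = 0.0260) and −0.81 (adjusted p = 0.00100), and *Acsl4* changed by −0.46 (adjusted p = 0.0122) and −0.57 (adjusted p = 0.00350).

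Synthesis and elongation held a single change past the threshold. *Acacb* encodes acetyl-CoA carboxylase 2, whose malonyl-CoA is known to restrain fatty acid entry into mitochondria (chromosome 5, 114146321 to 114250761). It was at 6.01, 6.80 and 9.25 CPM in WT, 1.86, 1.21 and 1.32 in sg5 and 2.56, 3.92 and 4.32 in sg6. The 3 lines did not overlap, with sg5 the lowest. *Acacb* changed by −2.33 ± 0.27 (adjusted p = 3.09e-04) in sg5 and by −1.03 ± 0.26 (adjusted p = 0.0149) in sg6, the latter falling short of the fold limit without the third WT library (−0.84) or without the first sg6 library (−0.85).

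The carboxylase of the cytosolic pathway, *Acaca*, and fatty acid synthase, *Fasn*, gave no detected difference in polyA. *Fasn* ranged over 394 to 640.1 CPM (WT), 408 to 645 CPM (sg5) and 404 to 558 CPM (sg6), with log2 fold changes of 0.03 (95% interval −0.44 to 0.50) and −0.02 (−0.49 to 0.46). *Acaca* had values of 0.16 and −0.01, and 33.4% of its 31-base words are shared, mostly with *Gm5182*. In the rRNA-depleted libraries *Fasn* gave 0.83 ± 0.32 in sg5 and 0.06 in sg6, and *Acaca* 0.66 ± 0.23 and 0.11, none past the adjusted p. *Acly*, ATP citrate lyase, was lower in sg6 (−0.64 ± 0.19, adjusted p = 0.0315) and gave −0.44 (adjusted p = 0.120) in sg5. *Me1*, the malic enzyme that supplies NADPH, was higher in sg6 (0.61 ± 0.18, adjusted p = 0.0301) and gave 0.50 (adjusted p = 0.0683) in sg5, with 30% of its words shared, mostly with *Gm7049*. The elongases *Elovl5* and *Elovl6* had log2 fold changes between −0.18 and 0.23.

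The 4 desaturases were all among the 7 most abundant tested members per kilobase of exon in WT polyA RNA, and none passed the threshold in edgeR in either clone there. By the adjusted p alone, only *Scd1* in sg6 passed. *Scd2*, a stearoyl-CoA desaturase, was the highest (303.5 CPM per kb), followed by *Acly* (101) and *Fads1* (85.8). In polyA, *Scd2* was at 1834, 1547 and 1593 CPM in WT, 2388, 1642 and 1820 in sg5 and 1593, 1482 and 1688 in sg6, which overlap in both comparisons. Its log2 fold changes were 0.23 (95% interval −0.045 to 0.51) and −0.06 (−0.34 to 0.22). *Scd1* gave 0.22 (adjusted p = 0.202) in sg5 and was higher by 0.41 ± 0.12 in sg6 (adjusted p = 0.0270). *Fads1* and *Fads2*, the desaturases of polyunsaturated fatty acids, gave 0.17 and 0.03 in sg5 and −0.08 and −0.25 in sg6. The *Scd1* and *Scd2* transcripts share 8.14% and 6.81% of their words with other genes, mostly *Scd3*.

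Assembly of triglyceride changed at *Lpin3*, a lipin phosphatase that makes diacylglycerol from phosphatidate (chromosome 2, 160880670 to 160906000). It was at 3.14, 2.67 and 3.11 CPM in WT, 6.07, 6.39 and 5.88 in sg5 and 7.25, 6.70 and 5.18 in sg6. Every KO library lay above every WT library, and the clones overlapped. *Lpin3* rose by 1.05 ± 0.15 (adjusted p = 0.00127) in sg5 and 1.11 ± 0.16 (adjusted p = 8.33e-04) in sg6, just past the fold limit: the sg5 value was 0.96 without the second WT library and the sg6 value 0.998 without the first sg6 library. The more abundant lipins, *Lpin1* and *Lpin2*, at 40.4 to 50.1 and 40.5 to 54.3 CPM in WT, had log2 fold changes between −0.19 and 0.07.

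*Agpat2*, which adds the second acyl chain, was at 12.75, 13.05 and 14.2 CPM in WT, 16.2, 15.8 and 16.0 in sg5 and 23.8, 22.7 and 20.9 in sg6, without overlap between any of the lines. Its change was 0.26 ± 0.09 in sg5 (adjusted p = 0.0510) and 0.75 ± 0.09 in sg6 (adjusted p = 2.86e-04), and sg5 was lower than sg6 by a log2 difference of −0.49 (adjusted p = 0.0112). The last acyltransferases stayed short of the fold limit in polyA. *Dgat1* gave −0.35 (adjusted p = 0.0306) and −0.21 (adjusted p = 0.150), and *Dgat2* 0.57 (95% interval −0.00 to 1.15) and 0.37 (−0.205 to 0.95). The first library of each line held the highest *Dgat2* level, 39.9, 75.0 and 59.8 CPM in WT, sg5 and sg6. *Gpam*, *Gpd1* and *Pck1*, which supply and load the glycerol backbone, did not pass the adjusted p. *Pck1* was at 1.40 CPM or less in every polyA library and at 0 counts in every rRNA-depleted library, which allows up to 3 counts per library.

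Of the perilipins and other droplet proteins, *Plin4* moved in both clones. It was at 347, 274 and 296 CPM in WT, 705, 442 and 588 in sg5 and 675, 509 and 625 in sg6, with every KO library above WT. Its log2 fold changes were 0.92 ± 0.18 (adjusted p = 0.00522) and 0.98 ± 0.18 (adjusted p = 0.00313), and without the first WT library they were 1.02 and 1.08. *Plin2*, the perilipin of most cells, was lower in sg5 (−0.37 ± 0.08, adjusted p = 0.00993) and gave −0.08 in sg6, while *Plin3* was higher in sg6 (0.30 ± 0.08, adjusted p = 0.0193) and gave 0.05 in sg5. The droplet genes *Plin1*, *Cidea* and *Cidec*, unlike *Plin4*, were near 0 in polyA. *Plin1* held 2 counts over the WT libraries, 5 over those of sg5 and 0 over those of sg6, and *Cidec* held 0, 1 and 2. *Plin5*, a perilipin of oxidative tissues, was at 0.237 to 0.384 CPM in every polyA library.

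Among the 38 members tested in polyA, the largest fold change was in lipolysis. *Mgll* encodes monoacylglycerol lipase, which removes the last fatty acid from the glycerol (chromosome 6, 88724412 to 88828360). It was at 0.489, 0.721 and 0.311 CPM in the WT polyA libraries, 7.54, 11.7 and 13.3 in sg5 and 40.3, 37.3 and 45.3 in sg6. The lines were far apart, from 91 counts over all WT libraries to 7597 over those of sg6. *Mgll* rose by 4.33 ± 0.31 (adjusted p = 2.05e-05) in sg5 and 6.25 ± 0.32 (adjusted p = 3.12e-06) in sg6. None of its 31-base words occurs in another gene, and its exons overlap the antisense gene *Gm26588* over 167 of 5077 bases.

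The lipases that act before it did not pass the adjusted p. *Pnpla2*, adipose triglyceride lipase, had log2 fold changes of −0.01 (95% interval −0.28 to 0.26) and 0.14 (−0.13 to 0.41), and *Lipe*, hormone-sensitive lipase, of −0.61 (−1.15 to −0.07) and −0.63 (−1.17 to −0.08), with adjusted p of 0.133 and 0.118. These intervals are normal approximations, narrower than the quasi-likelihood test implies, so leaving out 0 is not a pass. *Lipe* overlaps *4732471J01Rik* on the opposite strand over 918 exonic bases. *Cpt1a*, which carries fatty acids into mitochondria for oxidation, ranged over 55.1 to 79.7 CPM (WT), 88.0 to 106 CPM (sg5) and 91.6 to 94.1 CPM (sg6). It was higher by 0.55 ± 0.13 (adjusted p = 0.0132) and 0.45 ± 0.13 (adjusted p = 0.0269).

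A direct comparison of the clones shows where they differed from each other. In polyA, 2 members were lower in sg5 than in sg6, *Mgll* and *Acacb*, and 0 were higher, beside 1.25% and 1.36% of all genes by edgeR. At an unadjusted p under 0.05, 6 were lower and 2 higher, and DESeq2 called 3 lower and 0 higher. Shares of all genes were not counted for these rules or for the blocked fit, so these counts have no background beside them. The fit blocked on replicate number called 3 lower, *Lpl* added, and 1 higher, *Fabp4* (adjusted p = 0.00127). *Mgll* was lower in sg5 by a log2 difference of −1.92 ± 0.24 (adjusted p = 0.00190) and *Acacb* by −1.30 ± 0.26 (adjusted p = 0.0223). The *Acacb* difference did not pass when library 2 or 3 of either clone was left out, with adjusted p of 0.0871 (sg5 library 2), 0.0922 (sg5 library 3), 0.0870 (sg6 library 2) and 0.0786 (sg6 library 3) and log2 differences of −1.15 to −1.23.

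The rRNA-depleted libraries measured the same lines a second time, with shallower gene counts and reads counted per gene by another program. There 35 members had enough counts for a test. In sg5, 7 rose, *Fabp4*, *Acsl1*, *Lpl*, *Scd2*, *Mgll*, *Plin4* and *Dgat2*, and 2 fell, *Acacb* and *Slc27a1*, beside 3.04% and 4.31% of 13303 genes tested. In sg6, 2 rose, *Lpl* and *Mgll*, and 1 fell, *Slc27a1*, beside 2.16% and 3.59%. In the fit blocked on replicate number 5 rose in sg6, with *Fabp4* (1.76, adjusted p = 0.0497), *Plin4* (1.20, adjusted p = 8.19e-04) and *Lpin3* (1.05, adjusted p = 0.0384) added. The share of all genes was not counted in that fit. Without the block, *Lpl* and *Mgll* rose and *Slc27a1* fell in both clones, where 1.36% of all genes rose and 2.62% fell. The median log2 fold change of the members was 0.39 in sg5 and 0.21 in sg6, and that of all genes 0.08 and 0.04. 

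*Mgll* was at 1.095, 1.03 and 1.03 CPM in the WT rRNA-depleted libraries, 18.1, 16.8 and 19.7 in sg5 and 53.4, 34.6 and 35.6 in sg6, the same order of lines as in polyA. It rose by 4.11 ± 0.22 (adjusted p = 4.51e-07) and 5.29 ± 0.23 (adjusted p = 4.52e-08). *Lpl* was at 0.876, 0.516 and 0.418 CPM in WT, 3.50, 2.90 and 1.31 in sg5 and 23.1, 10.3 and 8.94 in sg6, and rose by 2.11 ± 0.47 (adjusted p = 0.0221) and 4.57 ± 0.48 (adjusted p = 1.02e-04). The sg5 value of *Lpl* rests on few counts and did not pass without WT library 2 or 3 or without sg5 library 2 (adjusted p = 0.0927, 0.130 and 0.0538). *Slc27a1* was at 17.6, 25.9 and 20.8 CPM in WT, 1.81, 0.947 and 2.05 in sg5 and 4.39, 8.09 and 6.97 in sg6. The 3 lines stood apart, with changes of −3.71 ± 0.31 (adjusted p = 1.55e-05) and −1.72 ± 0.28 (adjusted p = 0.00291).

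Between the clones in these libraries, 3 members were lower in sg5 than in sg6, *Lpl*, *Mgll* and *Slc27a1*, and 0 were higher, beside 0.925% and 0.556% of all genes by edgeR. At an unadjusted p under 0.05, 4 were lower and 5 higher, and DESeq2 called 3 lower and 0 higher, again without a share of all genes by these rules. The log2 differences were −2.46 ± 0.42 for *Lpl* (adjusted p = 0.0173), −1.18 ± 0.19 for *Mgll* (adjusted p = 0.00909) and −1.99 ± 0.30 for *Slc27a1* (adjusted p = 0.00704). In the fit blocked on replicate number *Dgat2* was higher in sg5 than in sg6 (1.24, adjusted p = 0.00569). Without the second sg5 library the adjusted p was 0.0523 for *Lpl* and 0.0721 for *Mgll*, and without the first sg6 library the *Mgll* difference was −0.93. For *Slc27a1* the polyA libraries gave −0.26 (95% interval −0.84 to 0.32), which did not pass.

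Another 4 members, *Dgat2*, *Plin4*, *Scd2* and *Acsl1*, passed in sg5 in the rRNA-depleted libraries and not in polyA. *Dgat2* was at 32.8, 11.5 and 15.5 CPM in WT, 196, 58.7 and 46.7 in sg5 and 81.1, 19.6 and 26.5 in sg6, and *Plin4* at 151, 80.2 and 80.1 CPM in WT, 461.5, 315 and 233 in sg5 and 406, 148 and 191 in sg6. In both genes the first library was the highest of each line. *Dgat2* rose by 2.34 ± 0.60 in sg5 (adjusted p = 0.0472) and *Plin4* by 1.70 ± 0.37 (adjusted p = 0.0185), but neither passed without the second WT library (adjusted p = 0.177 and 0.0937) or the third (0.200 and 0.110), and *Dgat2* did not pass without the first sg5 library (1.43, adjusted p = 0.131). *Scd2* was at 281, 309 and 348 CPM in WT, 647, 860.3 and 466 in sg5 and 443, 232 and 433 in sg6, a rise of 1.07 ± 0.25 in sg5 (adjusted p = 0.0269) that did not pass without any 1 of the WT libraries (adjusted p = 0.0792, 0.0886 and 0.0778) or without the second sg5 library (0.89, adjusted p = 0.0951). *Acsl1* rose by 1.05 ± 0.18 (adjusted p = 0.00495), and by 0.96 without the third WT library.

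Set side by side, the kinds of library ranked the members in a like way. Across the 35 members tested in both, Pearson's r of the log2 fold changes was 0.916 (Spearman's rho 0.816) in sg5 and 0.947 (0.896) in sg6, beside 0.832 (0.684) and 0.881 (0.836) over 12937 genes, and 30 members in sg5 and 27 in sg6 had the same sign. These are descriptions across genes that share their cell lines, and a few members far from 0 carry them. *Angptl4* kept its direction, −1.25 and −1.32, without passing in the rRNA-depleted libraries (adjusted p = 0.403 and 0.492). Its sg5 libraries held 5.54, 0.279 and 0.464 CPM there. *Acacb* fell there in sg5 (−3.52 ± 0.58, adjusted p = 0.00316), with 6 counts over the sg5 libraries against 88 over WT, and gave −0.84 (adjusted p = 0.495) in sg6. *Cd36* was too low to test, with 25 counts over WT, 1 over sg5 and 2 over sg6.

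**Figure D3:**
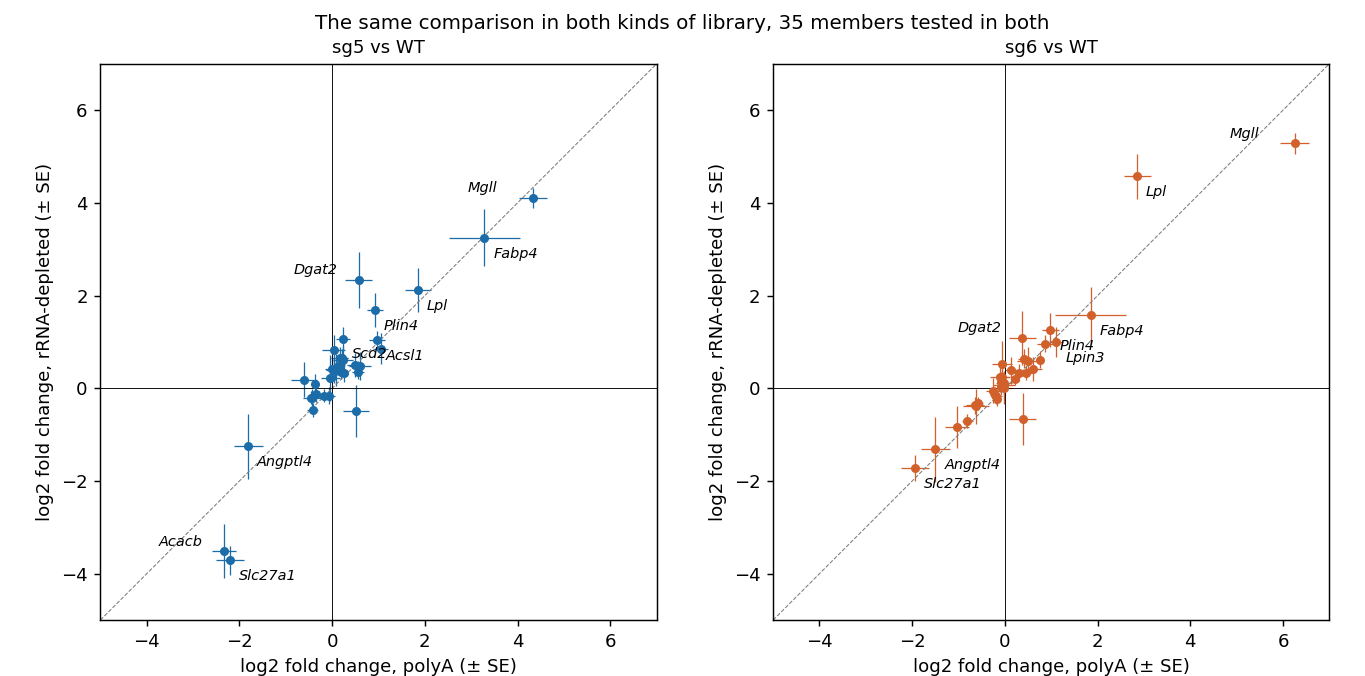
Log2 fold change over WT of the 35 members tested in both kinds of library, polyA on the x axis and rRNA-depleted on the y axis, with SE bars, for sg5 (left) and sg6 (right); the dashed line marks equal values. Mgll and Lpl are far out on the upper right in both panels, and Dgat2 in sg5 lies well above the line, at 0.57 in polyA and 2.34 in rRNA-depleted RNA.

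The library numbered 1 was the highest of its line in all 3 lines for 10 of 38 members in polyA, among them *Fasn*, *Acly*, *Acaca*, *Elovl6*, *Fads2*, *Dgat2*, *Plin4*, *Lpl* and *Fabp4*, beside 11.6% of all genes, and for 13 of 35 in the rRNA-depleted libraries beside 21.5% of all genes. *Fasn* was at 640.1 CPM in the first WT polyA library against 399 and 394 in the others, and at 645 against 408 and 409 in sg5. The labels do not say what the number marks. A fit blocked on it changed the calls given above beside *Lpl*, *Fabp4* and the rRNA-depleted counts.

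The other genes of the pathway came from 5 lists with 72 genes tested in polyA. Of these 3 rose and 3 fell in sg5, beside 3.18% and 6.96% of all genes, and 4 rose and 3 fell in sg6, beside 3.64% and 7.54%. Among the regulators, 14 of 15 were tested. *Pparg*, the fat cell transcription factor, rose: WT libraries held 18.6 ± 4.43 CPM (SD, n = 3), those of sg5 55.5 ± 7.24 and those of sg6 44.6 ± 5.25, changes of 1.58 and 1.27. *Ppargc1a*, a coactivator of oxidative metabolism, fell from 82.9 ± 13.25 CPM to 10.0 ± 8.76 and 2.37 ± 0.52, changes of −3.05 and −5.125. The SREBP genes, known activators of fatty acid and sterol synthesis, gave −0.005 and 0.10 for *Srebf1* and −0.05 and 0.09 for *Srebf2*, and the SREBP target *Insig1* gave 0.21 and −0.28. *Mlxipl* (−0.01 and 0.10) and *Nr1h3* (−0.39 and −0.25), carbohydrate and oxysterol sensors, did not pass either.

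Of 9 tested genes of uptake and activation outside the members, *Vldlr*, a lipoprotein receptor, rose in both clones (1.24, adjusted p = 0.0138, and 1.13, adjusted p = 0.0182), with values of 0.23 and 0.48 in the rRNA-depleted libraries that did not pass. Of 15 tested genes of synthesis and desaturation, *Elovl4*, an elongase of very long chains, fell (−1.10, adjusted p = 0.00668, and −4.74, adjusted p = 1.15e-05), and was higher in sg5 than in sg6 by 3.64 (adjusted p = 1.63e-04). *Elovl4* also fell in the rRNA-depleted libraries (−2.16 and −4.33), but the difference between the clones there, 2.17, did not pass (adjusted p = 0.400). *Cyb5a*, the electron donor of the desaturases, rose in sg6 (1.01, adjusted p = 6.74e-05) and reached 0.86 in sg5 (adjusted p = 1.89e-04). In the rRNA-depleted libraries *Cyb5a* instead rose in sg5 (1.03, adjusted p = 0.0017) and reached 0.92 in sg6 (adjusted p = 0.0043). Of 16 tested genes of assembly and droplets, *G0s2*, an inhibitor of adipose triglyceride lipase, rose (1.71 and 2.64, adjusted p = 3.69e-04 and 3.36e-05) and *Mogat2*, a monoacylglycerol acyltransferase, fell (−1.87 and −2.01, adjusted p = 0.00102 and 8.15e-04). *G0s2* also rose in the rRNA-depleted libraries (2.34 and 2.95), and *Mogat2* gave 0.55 and −0.21 there. The 18 genes of beta-oxidation had log2 fold changes of −0.51 to 0.96 in sg5 and −0.64 to 0.89 in sg6, all short of the fold limit. By the adjusted p alone 2 were higher and 2 lower in sg5, where 13.6% and 13.4% of all genes were, and 2 higher and 5 lower in sg6, where 16.1% and 14.6% were.

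**Figure D4:**
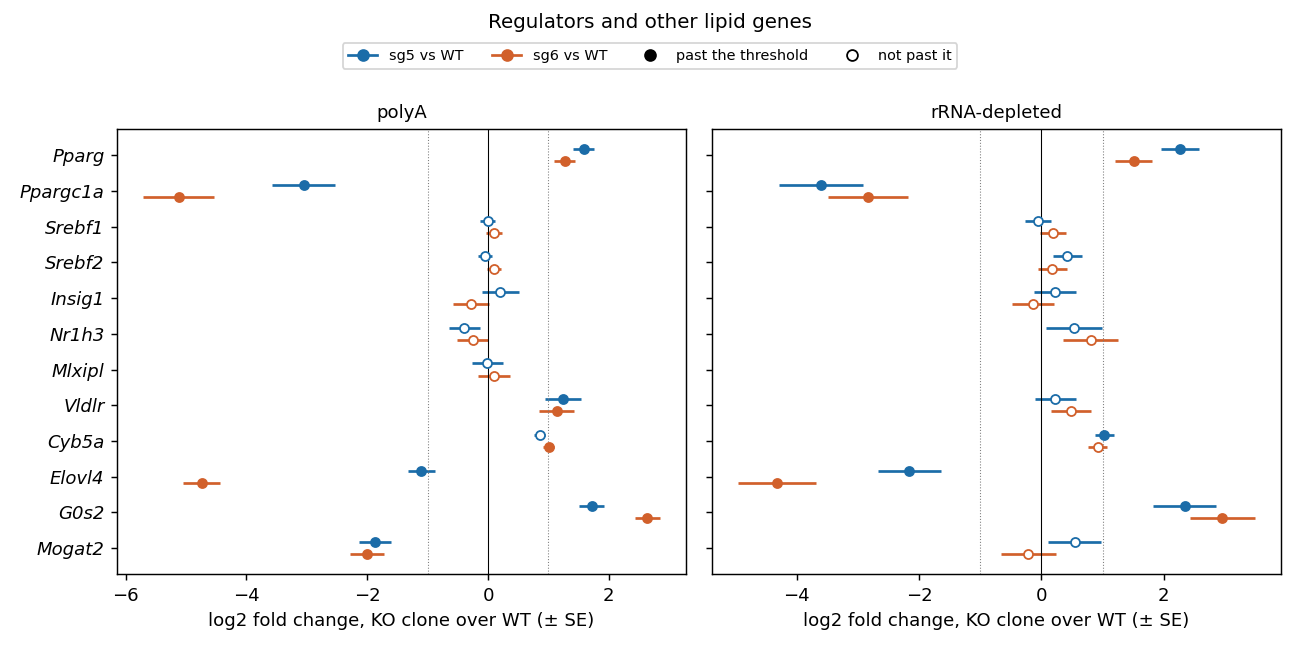
Log2 fold change over WT with SE bars for 12 regulators and other lipid genes outside the 41 members, polyA on the left and rRNA-depleted on the right, filled where the threshold was passed; Mlxipl was not tested in rRNA-depleted RNA. Pparg and G0s2 lie to the right of 1 in both clones and both kinds, Ppargc1a and Elovl4 to the left of −1, while Srebf1, Srebf2 and Insig1 lie between −0.28 and 0.42.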

How the data were processed

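The polyA and rRNA-depleted RNA of the 3 lines was analysed from the deposited tables. For polyA, the authors checked reads with Rfastp, quantified mm10 known genes with Salmon (version 0.8.2 in the submitters' processing notes) and summed them with tximport. The deposited expected counts are whole numbers without normalization, and rounding them again left them as they were. For rRNA-depleted RNA, the authors aligned reads with STAR 2.27.10a and deposited TElocal counts per gene and transposable element (TE) locus, also not normalized.

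Symbols came from the RefSeq table for 24045 of 24100 Entrez identifiers, and positions, overlaps and shared words of 31 bases from GENCODE on GRCm38. Features were filtered with filterByExpr (minimum count 10, minimum total 15), scaled by TMM and fitted with edgeR 4.0.16 in R 4.3.3 (quasi-likelihood test, all 9 libraries of a kind, 3 groups, Benjamini-Hochberg adjustment over 15480 genes for polyA and 56086 genes and TE loci for rRNA-depleted). Calls needed an adjusted p under 0.05 and more than 1 in log2 terms. Counting intervals cover counting error only. No libraries were identical. The deviations of same-numbered libraries from their group means correlated over 0.1 in all 3 pairs for sg6 with WT and for sg5 with sg6 in both kinds, but in 2 of 3 for sg5 with WT (lowest 0.037 in polyA and −0.27 in rRNA-depleted RNA). The labels do not explain the replicate number. The main fits held no block, and the counts, SE and adjusted p come from them unless another fit is named. A fit blocked on the replicate number was run as an alternative. The edgeR fit without a block and the DESeq2 fit were run on simulated counts with known changes, for each clone against WT. The comparison between the clones and the other alternative fits were not tested in this way.

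Members and lists were chosen with earlier results of these data known. Members past the threshold in a polyA comparison with WT, or between the clones in either kind, are given with their values in every library. From the lists, genes past it in both clones and 6 regulators are named by fold change. *Cyb5a*, *Slc27a4*, *Agpat2*, *Acsl1*, *Plin4*, *Scd2*, *Dgat2* and the *Fasn* libraries were added after their values were seen. Alternatives were DESeq2 1.42.0, median-of-ratios size factors, fits of only the 2 groups compared, no filter, counts thinned to the smallest library, a minimum of 10 counts in each library, glmTreat with a limit of 1, a replicate block, genes without TE loci, and each library or replicate number left out. Figures were drawn with matplotlib.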

Additional observations from a re-analysis of the deposited data

Results flagged for a closer look

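In polyA RNA, 2 members differed between the clones past the threshold, with sg5 lower than sg6 by a log2 difference of −1.92 for *Mgll* and −1.30 for *Acacb*. In rRNA-depleted RNA, 3 did, with −2.46 for *Lpl*, −1.99 for *Slc27a1* and −1.18 for *Mgll*. These are differences of 2 single clones, and what else differs between the clones cannot be told apart from them.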

How the results depend on the processing

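No member value that was called changed sign under the alternatives run. Of 1275 member values, 1159 kept their side of the threshold, 80 lost it and 36 gained it; the cause was not tested. Shares of all genes were not counted under the alternatives in this section. Its counts of members and list genes therefore have no background beside them. In polyA the settings below moved these counts. Without a filter, 5 list genes fell in sg5 and 5 in sg6. Tested against a log2 fold change of 1, 2 members rose in sg5, 2 fell in sg6, 2 fell in both clones, 1 was lower in sg5 than in sg6, and 1 list gene rose in sg6. Thinned to the smallest library, 1 member was lower in sg5 than in sg6. In rRNA-depleted RNA, DESeq2 called 6 list genes up in sg5, 1 down in sg6, and 4 members up in sg6 and in both clones. Without a filter, 5 list genes rose in sg5, 5 members rose in sg6 and in both clones, and 2 were higher in sg5 than in sg6. With at least 10 counts in every library, 3 members rose and 1 fell in sg5, and 1 list gene fell in sg5 and 0 in sg6. With only the 2 groups compared, 2 members fell in sg6 and 1 was lower in sg5 than in sg6. Tested against 1, 2 members rose in sg5, 1 rose and 0 fell in both clones, 0 fell in sg6, 0 were lower in sg5 than in sg6, and 1 list gene moved in each direction in each clone. Thinned, 1 list gene fell in sg5.

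Leaving out a library or a replicate number in all lines gave, in polyA, 2 to 6 members up and 3 to 5 down in sg5, 2 to 5 and 3 to 5 in sg6, 2 to 5 and 2 to 4 in both clones, and 0 to 0 higher and 0 to 3 lower in sg5 than in sg6. The lists gave 2 to 4 up and 0 to 4 down in sg5 and 2 to 4 and 3 to 4 in sg6. In rRNA-depleted RNA the ranges were 2 to 8 up and 1 to 3 down in sg5, 2 to 4 and 0 to 2 in sg6, 1 to 4 and 0 to 2 in both clones, and 0 to 1 higher and 0 to 4 lower between the clones, and for the lists 1 to 5 and 0 to 2 in sg5 and 0 to 4 and 0 to 2 in sg6. The share of all genes was not counted in any of these fits.

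Of the libraries set against each other by line, 16 of 18 polyA and 12 of 18 rRNA-depleted comparisons matched best with their own number. With the replicate block, 1 polyA member was higher in sg5 than in sg6 (*Fabp4*, adjusted p = 0.00127), *Fabp4* also passed in sg6 against WT (1.62, adjusted p = 4.49e-04), and *Lpl* passed between the clones (−1.08, adjusted p = 0.0116). In rRNA-depleted RNA the block gave 5 members up in sg6, 4 in both clones and 1 higher in sg5 than in sg6, and 5 list genes up in sg5 and 4 in sg6. The gained members there were *Fabp4*, *Plin4*, *Lpin3* and *Dgat2*, and the block changed no other call of a member. Low counts limit *Cd36*, *Acacb* and *Lpl* in the shallower libraries.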
